A study of Mus musculus with 27 samples.

Results

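DNA methylation is written by the DNA methyltransferases and removed with the help of the TET enzymes. DNMT1 copies the methyl mark onto the new strand when DNA is replicated, and UHRF1 brings DNMT1 to sites methylated on the parental strand alone. DNMT3A and DNMT3B add methyl groups to sites that had none, while TET1, TET2 and TET3 oxidise methylcytosine so that it can be diluted or excised. Erythroid maturation is known for a loss of DNA methylation across the genome, and DNMT3A and TET2 are genes often mutated in myeloid disease. The transcripts of these 7 genes (Dnmt1, Uhrf1, Dnmt3a, Dnmt3b, Tet1, Tet2 and Tet3) were chosen by symbol. All 7 were listed in each of the 5 RNA-Seq tables, which hold between 16465 and 18519 genes, and all 7 passed the filter on low counts in each.

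The libraries came from MEL cells, a mouse erythroleukaemia line that resembles an erythroid progenitor and matures when induced. The corepressor ETO2 (gene Cbfa2t3) was depleted with the shRNAs sh2 and sh3 (2 libraries each, 2 controls), its partner IRF2BP2 with sh1 (2 libraries, 2 controls) and the histone demethylase LSD1 (gene Kdm1a) with an shRNA (2 libraries, 1 control). The repressor GFI1B was depleted by siRNA (2 libraries, 2 controls). The methods name 2 different siRNAs against it, and which was used for which library is not in the labels, so the 2 libraries may not share a reagent. Knockdown (KD) controls carry the label WT and, per the methods, received non-targeting shRNA or siRNA. Non-induced and induced MEL cells made up the last set (2 libraries each). The labels do not name the inducer. Replicates were independent biological samples per the methods, although the labels do not say so. The KD cells are a bulk population, and a lower transcript level in fewer cells and less RNA per cell cannot be told apart.

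Counted reads ranged from 9929310 to 57684600 per library and were lowest in the Gfi1b and induction sets. Of 10 erythroid marker genes, 7 or 8 were above 1 CPM (reads of a gene scaled to library size) in every library of a set. Their summed level was 1915 to 2028 CPM in non-induced and 3556 to 4309 CPM in induced cells, and the lymphoid markers together stayed at or below 2.55 CPM in each library. The erythroid sum also moved with the Irf2bp2 KD (1282 to 1348 CPM in controls, 3481 to 3733 CPM in KD libraries). The 5 megakaryocyte markers moved in the same sets, from between 390 and 531 to between 1200 and 1333 CPM on induction and from between 370 and 423 to between 798 and 830 CPM in the Irf2bp2 KD. In the Cbfa2t3 KD they went from between 407 and 420 to between 489 and 600 CPM. The 3 stromal markers went from between 22.3 and 23.6 to between 3.47 and 10.7 CPM on induction, from between 5.40 and 6.02 to between 2.75 and 2.79 CPM in the Irf2bp2 KD, from between 6.38 and 8.30 to between 2.10 and 5.76 CPM in the Cbfa2t3 KD, from 6.28 to between 21.2 and 24.3 CPM in the Kdm1a KD and from between 17.1 and 19.3 to between 23.8 and 44.3 CPM in the Gfi1b set. The myeloid markers together stayed at or below 19.9 CPM, and went from between 5.63 and 6.64 to between 9.86 and 10.9 CPM on induction, from between 12.8 and 16.6 to between 18.03 and 19.9 CPM in the Irf2bp2 KD and from between 1.78 and 3.33 to between 4.42 and 6.45 CPM in the Gfi1b set. In the Gfi1b set the megakaryocyte sum was 229 to 294 CPM in controls and between 180 and 914 CPM in the libraries labelled KD. The part of any of these in the results that follow was not tested. The targeted gene was lower in each KD library of 3 of the 4 sets. Cbfa2t3 stood at 400.3 and 427.2 CPM in controls, at 202.1 and 243.5 CPM with sh2 and at 123.1 and 145.3 CPM with sh3. Kdm1a fell from 151.6 CPM in its only control to 16.9 and 16.3 CPM. Irf2bp2 stood at 116.0 and 119.7 CPM in controls and at 92.2 and 94.9 CPM in KD libraries, a 1.26-fold difference. Gfi1b measured 122.3 and 145.0 CPM in its controls and 76.5 CPM in the library labelled KD replicate 2, but 215.8 CPM in the library labelled KD replicate 1, which goes against its label. The Gfi1b results are therefore given with and without that library.

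MEL cells carried far more maintenance than de novo methyltransferase transcript. On the per-length scale (the authors' RPKM, the scale on which levels of different genes were compared), the median over 21 libraries was 342.4 for Dnmt1 and 120.6 for Uhrf1. The other members were far lower, with medians of 13.8 for Tet3, 8.93 for Dnmt3a, 6.83 for Dnmt3b, 3.89 for Tet2 and 0.481 for Tet1. Dnmt1 exceeded Uhrf1 in 21 of 21 libraries, and Uhrf1 exceeded Tet3 in 20 of 21, the exception being MEL induced replicate 2, where Tet3 stood at 34.4 RPKM and Uhrf1 at 30.1. Tet3 exceeded Dnmt3a in 20 of 21, Dnmt3a exceeded Dnmt3b in 19 of 21 and Dnmt3b exceeded Tet2 in 16 of 21 libraries. Tet2 was above Dnmt3b in all induction libraries and in the library labelled Gfi1b KD replicate 1 (8.98 against 3.84 RPKM). In the library labelled Gfi1b KD replicate 2 Tet2 was below it (5.59 against 6.24 RPKM). Tet1 was the lowest member in every library, with 79 to 421 reads.

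**Figure D1:**
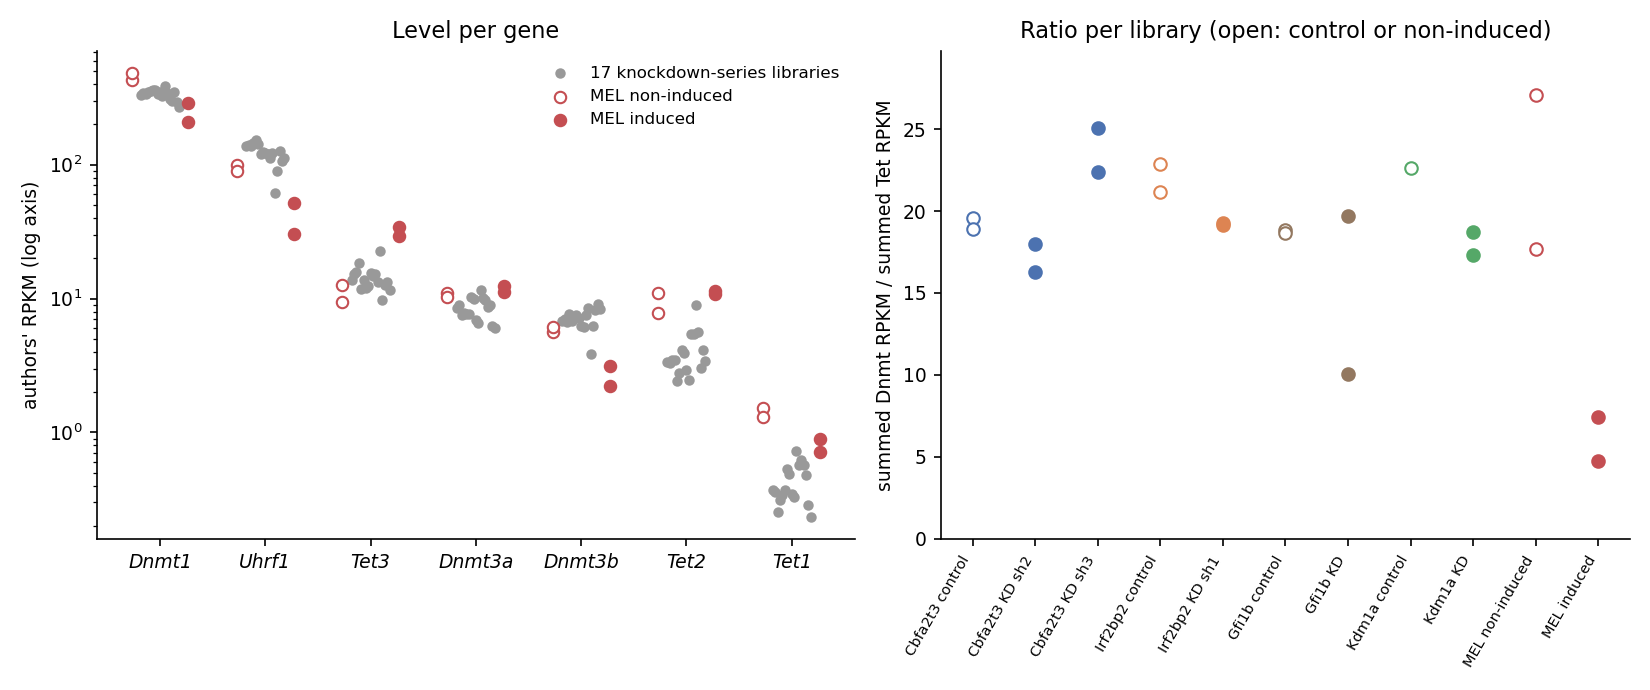
Left, RPKM of each member in 21 libraries on a log axis, with the induction libraries in red; right, the ratio of the summed Dnmt1, Dnmt3a and Dnmt3b RPKM to the summed Tet1, Tet2 and Tet3 RPKM in each library. The ratio was 7.45 and 4.78 in the induced libraries and at least 10.0 in every other library.

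Within the methyltransferases, Dnmt1 made up between 94.0% and 96.7% of the summed RPKM of Dnmt1, Dnmt3a and Dnmt3b in each of the libraries. The TET family was more evenly divided. Tet3 made up 50.6% ± 0.707 (SD, n = 2) of the summed Tet1, Tet2 and Tet3 RPKM in non-induced cells and 72.7% ± 1.45 (SD, n = 2) in induced cells. Tet2 went the other way, from 42.8% ± 1.37 (SD, n = 2) to 25.5% ± 1.57 (SD, n = 2). The non-induced cells were the ones that stood apart. In the KD control libraries, which are not induced either, Tet3 made up 70.3% (Gfi1b), 73.0% (Irf2bp2), 78.4% (Kdm1a) and 79.7% (Cbfa2t3) on average, and Tet2 26.5%, 23.9%, 18.6% and 18.3%. The induced shares thus lie within the range of the KD controls for both genes. The tables were normalized separately, and no test was made across them. The summed methyltransferase level divided by the summed TET level was 17.7 and 27.1 in the non-induced libraries and 7.45 and 4.78 in the induced ones. These groups do not overlap, as the plot of the ratio by library shows. The closest other value, 10.0, belonged to the library labelled Gfi1b KD replicate 1.

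ETO2 and IRF2BP2 sites were next sought near the members, in the authors' list of 13229 sites on mm9. There is no replicate ChIP, so these are descriptions. The ETO2 data behind the list are, per the methods, from an earlier published data set and are not among the samples of this series. Every site was assigned to the protein-coding gene with the nearest transcription start site (TSS), with 1 start per gene, that of its outermost transcript. By that rule 11 sites fell to 6 of the 7 members and none to Tet1, while 29.0% of 22380 protein-coding genes had a site. That share covers genes expressed or not, whereas all members passed the filter on low counts. The share among expressed genes was not computed. Of the 11 sites, 9 were of the IRF2BP2-only class, 1 was shared by both proteins and 1 was ETO2-only. In the whole list 66.1% of sites were IRF2BP2-only. The class names were read from codes in the file by matching the size of each class.

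The maintenance genes were bound close to their starts, though weakly, and every site named here for them was of the IRF2BP2-only class. Uhrf1 (chr17:56442744-56462909, plus strand) had a site at chr17:56442669-56443074 over its first exon, centred 110 bp past the TSS and 4-fold over IgG, which is at the 11.1 percentile of the list. Dnmt1 (chr9:20711650-20757317, minus strand) had an intronic site at chr9:20755696-20756592, centred 1252 bp past the TSS and 5.14-fold over IgG. A further Dnmt1 site, 4.09-fold over IgG, lay 8903 bp upstream at chr9:20765989-20766606, which is 1888 bp upstream of another Dnmt1 start in RefSeq. The Uhrf1 and Dnmt1 sites near the starts both hold TTCCCGC, a core of the sequence that E2F factors recognise, on either strand within 100 bp of the centre. That string was picked after the sequences had been seen, and 2.56% of the 8739 IRF2BP2-only sites hold it. The 28 bases around it are shown for both, on the plus strand of mm9, to let the shared core be compared, with the core in capitals and read on the minus strand at Uhrf1.
Uhrf1, chr17:56442810-56442837: cctgagttttcGCGGGAAaaaaagtcct
Dnmt1, chr9:20756136-20756163: gggatccagtgTTCCCGCcaatccttgc

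TTCCCGC also occurs in 1 of 2 Uhrf1 promoters of RefSeq (GRCm38.p6, chr17:56303087-56303386, plus strand, 250 bases before the start and 50 after it), as it does in 4.6% of 32851 RefSeq promoters. The other Uhrf1 promoter (chr17:56304063-56304362) and the 3 Dnmt1 promoters do not hold these letters. The promoter that does is printed with that core in capitals, since Uhrf1 had the largest fall on induction with all libraries in the fit. Dnmt3b was close behind it, and ahead of it without induced replicate 2.
Uhrf1 promoter: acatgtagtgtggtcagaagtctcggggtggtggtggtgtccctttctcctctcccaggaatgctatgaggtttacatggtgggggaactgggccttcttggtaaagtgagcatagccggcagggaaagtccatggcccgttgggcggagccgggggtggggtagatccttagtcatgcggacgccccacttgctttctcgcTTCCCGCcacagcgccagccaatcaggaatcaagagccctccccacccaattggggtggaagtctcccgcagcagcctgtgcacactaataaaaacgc

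Dnmt3a, Dnmt3b, Tet2 and Tet3 were bound at a distance or inside the gene. Tet3 (chr6:83312367-83391672, minus strand) had adjoining IRF2BP2-only sites at chr6:83405168-83405740, 5-fold over IgG, and chr6:83405740-83407653, 11-fold, centred 13859 and 14967 bp upstream of the TSS. Tet2 (chr3:133126643-133207354, minus strand) had a cluster of 3 sites between 79138 and 83262 bp upstream. The strongest of the 3, chr3:133286838-133287510, was 22.7-fold over IgG, at the 94.1 percentile of the list, and the one beside it, chr3:133286049-133286840, was the only shared site assigned to a member. All 3 windows at Tet2 hold AGATAA, a form of the GATA motif, within 100 bp of the centre, as do 22.6% of IRF2BP2-only and 58.3% of shared sites. Dnmt3a (chr12:3806007-3914443, plus strand) had an ETO2-only site of 5.90-fold 10250 bp upstream, at chr12:3795480-3796511, and an IRF2BP2-only site of 22.0-fold 46375 bp upstream, at chr12:3759302-3759946. Inside Dnmt3a lay 2 more sites, which fell to Pomc because 1 start per gene was used, although internal Dnmt3a transcript starts lay 2761 and 958 bp from them. Of these, the IRF2BP2-only site chr12:3892350-3893534, 6-fold, was centred 958 bp past an internal Dnmt3a transcript start, and the shared site chr12:3887623-3888531, 4.22-fold, lay 3534 bp before it. Dnmt3b (chr2:153475186-153513466, plus strand) had a site of 4.67-fold over an exon, 27739 bp past the TSS, at chr2:153502711-153503521.

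The 200 bases around the centre are shown for 4 of these sites, on the plus strand of mm9, because they are the strongest site at Tet2, both sites upstream of Tet3 and the shared site inside Dnmt3a. Capitals mark these motifs on either strand. AGATAA is a form of the GATA motif, and so is TGATAA. The E-box is searched as CAGCTG. An element of the AP-1 type is searched as TGACTCA, and the GC box as CCCGCCC. Of all 13229 windows of this length, 34.4% hold AGATAA, 22.1% TGATAA, 27.95% CAGCTG, 11.7% TGACTCA and 7.89% CCCGCCC. A match describes the letters and is no evidence of binding.
Tet2, chr3:133287073-133287272: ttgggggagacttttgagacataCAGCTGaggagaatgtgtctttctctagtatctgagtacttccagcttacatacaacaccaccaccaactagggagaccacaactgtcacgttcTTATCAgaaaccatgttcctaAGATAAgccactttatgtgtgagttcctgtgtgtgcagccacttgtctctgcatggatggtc
Tet3, chr6:83405431-83405630: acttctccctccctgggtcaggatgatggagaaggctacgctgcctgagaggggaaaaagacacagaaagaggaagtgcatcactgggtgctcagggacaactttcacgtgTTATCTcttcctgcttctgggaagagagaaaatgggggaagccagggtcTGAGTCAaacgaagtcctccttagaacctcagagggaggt
Tet3, chr6:83406539-83406738: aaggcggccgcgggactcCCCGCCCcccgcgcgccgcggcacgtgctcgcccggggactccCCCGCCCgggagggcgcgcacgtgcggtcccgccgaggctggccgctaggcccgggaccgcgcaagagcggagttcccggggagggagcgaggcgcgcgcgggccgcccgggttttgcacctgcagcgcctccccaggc
Dnmt3a, chr12:3888110-3888309: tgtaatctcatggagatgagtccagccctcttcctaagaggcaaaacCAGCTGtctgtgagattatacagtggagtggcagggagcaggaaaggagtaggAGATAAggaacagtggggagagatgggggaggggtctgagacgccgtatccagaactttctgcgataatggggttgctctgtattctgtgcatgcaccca

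**Figure D2:**
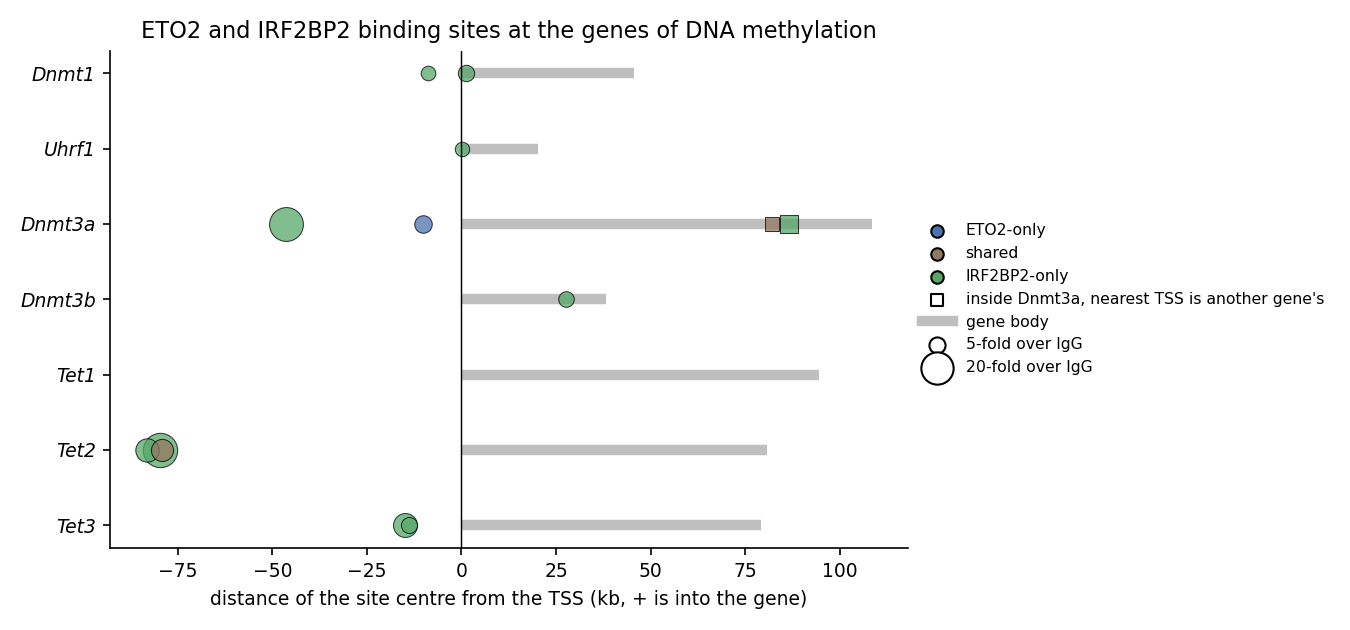
Distance in kb from the TSS to the centre of each ETO2 or IRF2BP2 site at the 7 genes, with the gene body in grey, colour for the class of site and area for the fold over IgG. The sites of Uhrf1 and Dnmt1 lie within 8903 bp of the TSS, and the 3 sites of Tet2 lie 79138 to 83262 bp upstream.

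Induction of MEL cells moved 4 of the 7 members. Here and below a gene is called changed where edgeR's quasi-likelihood test gave a Benjamini-Hochberg adjusted p of at most 0.05 and the log2 fold change was at least 0.5 either way. Dnmt1, Uhrf1 and Dnmt3b fell and Tet3 rose. By the same rule 27.2% of the 11713 genes tested were called, 14.8% lower and 12.4% higher. With 7 members, the count of 4 is given beside that background and read no further.

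Uhrf1 stood at 332.5 and 313.9 CPM in non-induced cells and at 177.6 and 105.8 CPM in induced cells. The groups do not overlap, and the fall was 2.28-fold (log2 fold change -1.19, SE 0.27, adjusted p = 0.00645, edgeR). Dnmt1 stood at 2165 and 2549 CPM before and at 1478 and 1123 CPM after induction. It fell 1.81-fold (log2 fold change -0.86, SE 0.25, adjusted p = 0.0199, edgeR) and, even so, remained the most abundant member. Dnmt3b, already low at 21.6 and 25.2 CPM, measured 12.3 and 9.08 CPM after induction, a 2.19-fold fall (log2 fold change -1.13, SE 0.33, adjusted p = 0.0212, edgeR). In all 3 genes both induced libraries were below both non-induced ones, a pattern not counted over all genes. The lower induced value belonged to replicate 2. Without that library none of the 3 passed the test, with log2 fold changes of -0.85 for Uhrf1 (adjusted p = 0.0989), -0.66 for Dnmt1 (adjusted p = 0.258) and -0.91 for Dnmt3b (adjusted p = 0.138). Dnmt1 was also lost without non-induced replicate 2 (-0.73, adjusted p = 0.0770), and Dnmt3b without non-induced replicate 1 (-1.25, adjusted p = 0.0564) or 2 (-1.01, adjusted p = 0.121).

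Tet3 moved in the opposite direction and furthest. It stood at 134.2 and 105.2 CPM in non-induced and at 315.1 and 387.6 CPM in induced cells, a 2.93-fold rise (log2 fold change 1.55, SE 0.25, adjusted p = 0.000775, edgeR). It stayed called when any of the 4 libraries was left out, with log2 fold changes of 1.39 to 1.73. Tet1 measured 20.97 and 18.6 CPM in non-induced and 9.96 and 13.0 CPM in induced cells, groups that do not overlap, with a log2 fold change of -0.79 (95% confidence interval -1.49 to -0.08, adjusted p = 0.0887) that did not pass. Tet2 gave 98.8 and 72.6 CPM against 98.4 and 107.9 CPM, which overlap, with an interval of -0.26 to 0.80 on the log2 scale. Dnmt3a gave 102.4 and 95.2 CPM against 117.4 and 113.2 CPM, higher in both induced libraries, with an interval of -0.27 to 0.72.

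**Figure D3:**
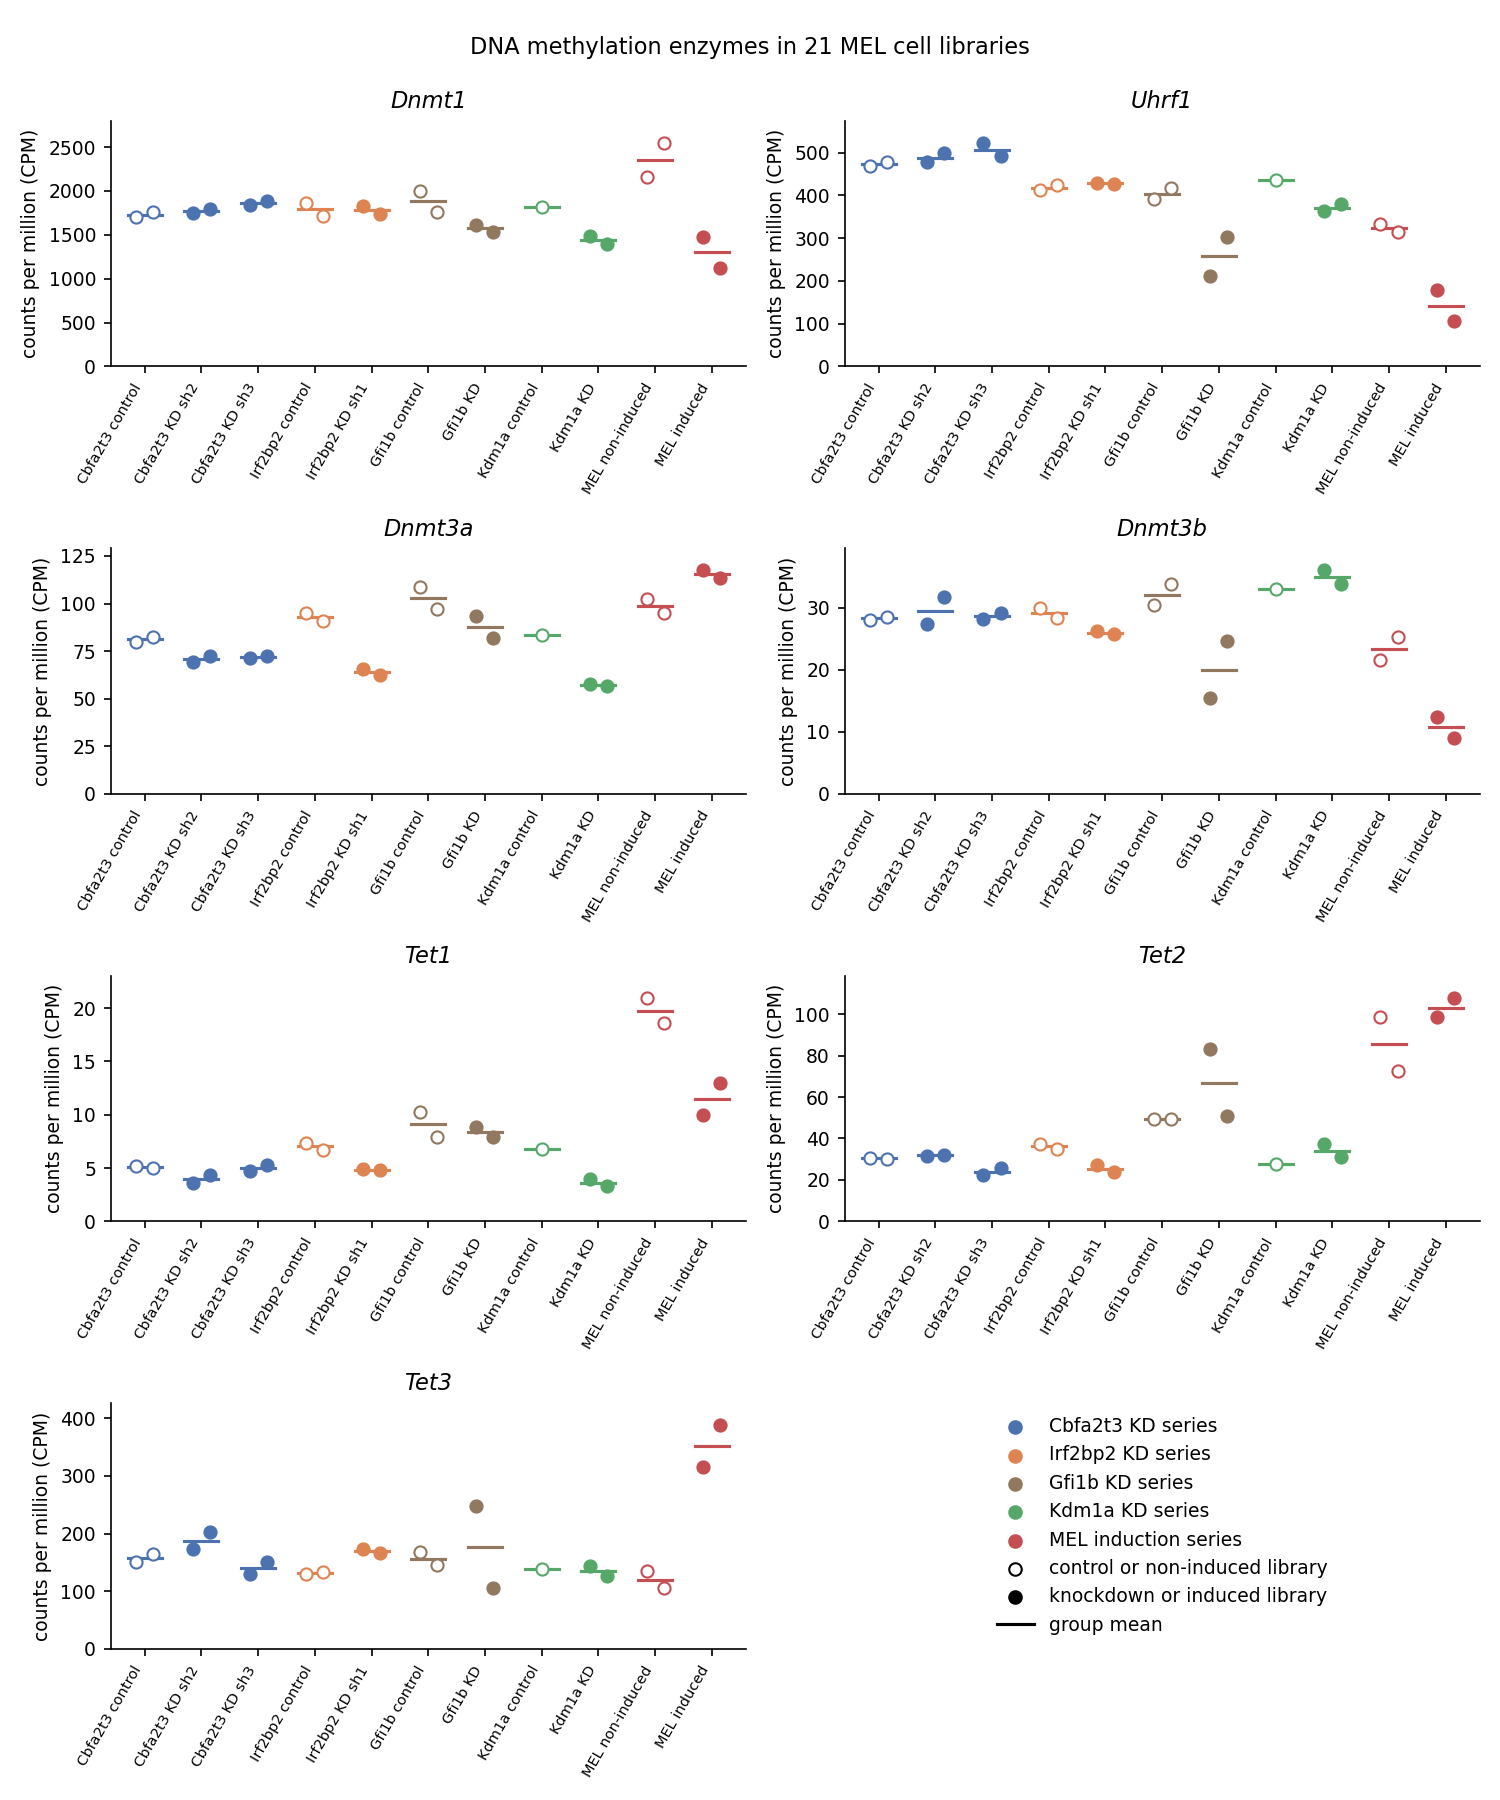
CPM of each member in each of 21 libraries, by group, on axes that start at 0; open points are control or non-induced libraries and bars are group means. Tet3 is at 315.1 and 387.6 CPM in induced cells, above each of the other libraries, and Dnmt3b is lowest there, at 12.3 and 9.08 CPM.

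Genes of the surrounding pathway were followed through 6 lists of 56 genes in all, of which 51 passed the filter in the induction set. Of these, 15 fell and 6 rose, beside 14.8% lower and 12.4% higher over all genes tested, so that the count of those that rose is at the background, and nothing is read from the smaller counts of single lists that follow. The median log2 fold change of the 51 was -0.23 against -0.02 over all genes tested. Among partners of maintenance methylation, 2 of 5 tested genes fell. They were Hells, a chromatin remodeller needed for methylation (log2 fold change -1.78, adjusted p = 0.00122), and Cdca7, which recruits it (-1.34, adjusted p = 0.00299). Pcna, the replication clamp to which DNMT1 binds, gave -0.64 (adjusted p = 0.0826). Of 13 genes of S phase and proliferation, 6 fell and none rose, the furthest being Mcm3 (-1.44, adjusted p = 0.00274) and Mcm4 (-1.15, adjusted p = 0.00373), subunits of the replicative helicase. The proliferation marker Mki67 stood at 0.11 (adjusted p = 0.810). Pcna and Mki67 were picked after their values had been seen. The part of these genes' change in that of Dnmt1 and Uhrf1 was not tested.

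Downstream of the mark, the list of readers of methylated CpG and their relatives had calls in both directions. Among them Zbtb4 (log2 fold change 1.81, adjusted p = 0.000511), which binds methylated DNA, rose. The only gene of that list called lower was Mbd3 (-1.21, adjusted p = 0.00487), a subunit of the NuRD complex. Among 9 genes that excise oxidised bases and mend the gap, the glycosylase Neil3 rose (0.97, adjusted p = 0.0152) and Parp1, which senses strand breaks, fell (-1.38, adjusted p = 0.00298). Of 9 cofactors and partners of the TET enzymes, 4 fell and 1 rose. Those that fell are isocitrate dehydrogenases, among them Idh3a (-1.42, adjusted p = 0.00119) and Idh1 (-1.21, adjusted p = 0.00595), which supply the ketoglutarate that TET enzymes consume. Ogt, whose enzyme binds the TET proteins and adds a sugar to them, rose (1.05, adjusted p = 0.00725). In the supply of the methyl donor, Ahcy, which clears the product inhibitor of methyltransferases, fell furthest (-1.84, adjusted p = 0.000714). Ahcyl2 (0.76, adjusted p = 0.0344) and Gnmt rose, but Gnmt was close to absent, at 0.302 CPM before and 2.35 CPM after induction.

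**Figure D4:**
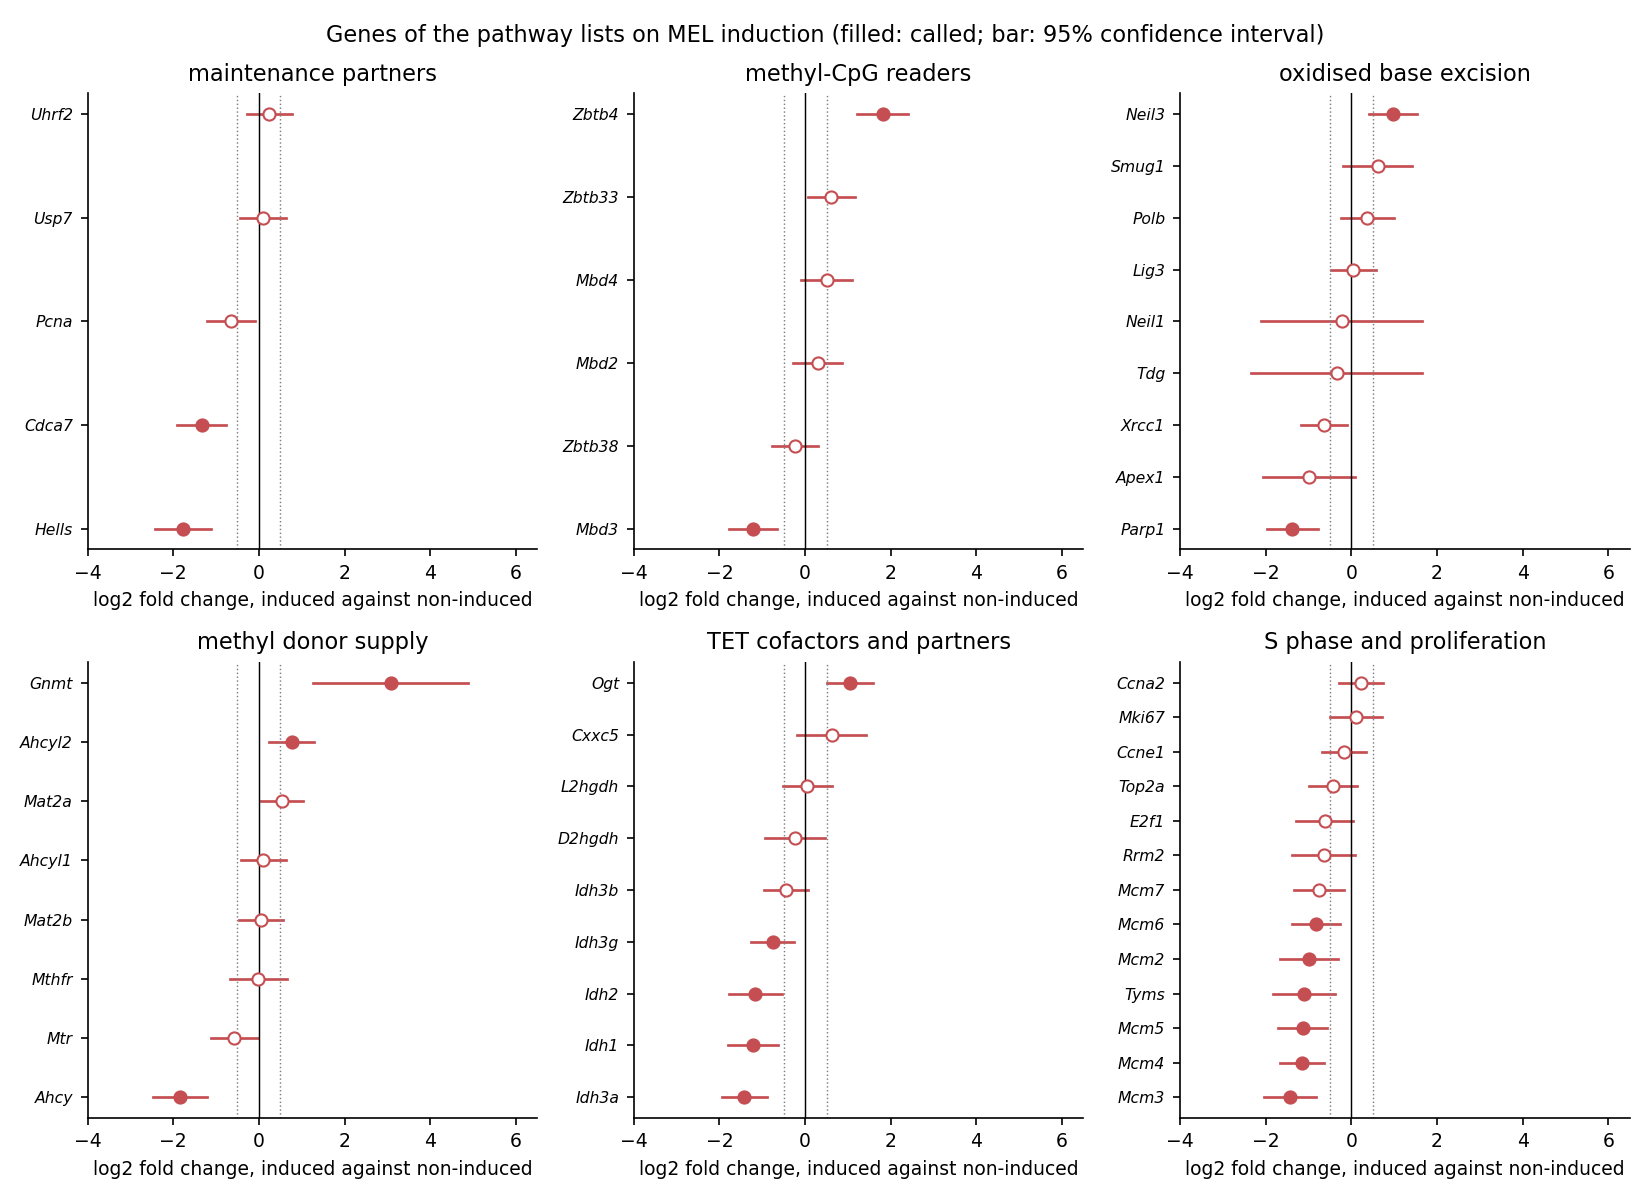
Log2 fold change on MEL induction with its 95% confidence interval for tested genes of 6 pathway lists; filled points were called. Hells, Cdca7, the Mcm genes and Tyms lie to the left, and Zbtb4 and Ogt to the right.

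On depletion of IRF2BP2, Dnmt3a, Tet1 and Tet2 fell, by little more than the limit of the call, and Dnmt1 and Uhrf1 were not called. Of the 12329 genes tested 22.5% were called and 12.5% were lower, against 3 of 7 members, all lower. Dnmt3a measured 95.01 and 90.7 CPM in controls and 65.8 and 62.7 CPM in KD libraries, a 1.45-fold fall (log2 fold change -0.53, SE 0.08, adjusted p = 5.00e-05, edgeR). Tet2 measured 37.5 and 35.0 CPM against 27.2 and 23.6 CPM (log2 fold change -0.52, SE 0.10, adjusted p = 0.000347, edgeR). Tet1, at 7.37 and 6.68 CPM against 4.94 and 4.78 CPM, fell as far (log2 fold change -0.53, SE 0.14, adjusted p = 0.00601, edgeR). In each of the 3 genes the groups do not overlap, though the share of all genes with such a separation was not counted. Without control replicate 1 all 3 kept an adjusted p of at most 0.0339 but came under the fold limit, at -0.50 for Dnmt3a and -0.46 for Tet1 and for Tet2. Without KD replicate 2, Dnmt3a (-0.50) and Tet2 (-0.41) did so too.

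Tet3 again went the other way, from 130.2 and 132.8 CPM in Irf2bp2 controls to 172.6 and 165.7 CPM in the KD. Its log2 fold change of 0.36 (SE 0.08, adjusted p = 0.00143, edgeR) passed the limit on p and not that on fold, with a 95% confidence interval of 0.19 to 0.53. Dnmt1 gave 1865 and 1720 CPM against 1829 and 1739 CPM, with an interval of -0.21 to 0.20 around a log2 fold change of -0.01. Uhrf1 gave 412.6 and 423.8 CPM against 430.0 and 427.1 CPM, with an interval of -0.14 to 0.21. Dnmt3b was 29.9 and 28.4 CPM against 26.2 and 25.7 CPM, lower in both KD libraries, and did not pass (-0.17, adjusted p = 0.145). In the pathway lists 3 of 52 tested genes rose and 4 fell, both counts under the 10.1% higher and 12.5% lower over all genes tested. Those that fell were Hells (-0.66, adjusted p = 5.35e-05), Lig3, a ligase of base excision repair (-0.62, adjusted p = 1.50e-05), Ahcy (-0.57, adjusted p = 5.72e-05) and Neil1, a glycosylase at about 2 CPM (-0.56, adjusted p = 0.0465). Ccne1, the cyclin of S phase entry (0.84, adjusted p = 4.24e-07), Smug1 (0.74, adjusted p = 0.000174) and Mat2a, which makes the methyl donor (0.70, adjusted p = 5.73e-06), rose. The median of the 52 genes was -0.02, against -0.0063 over all genes tested.

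**Figure D5:**
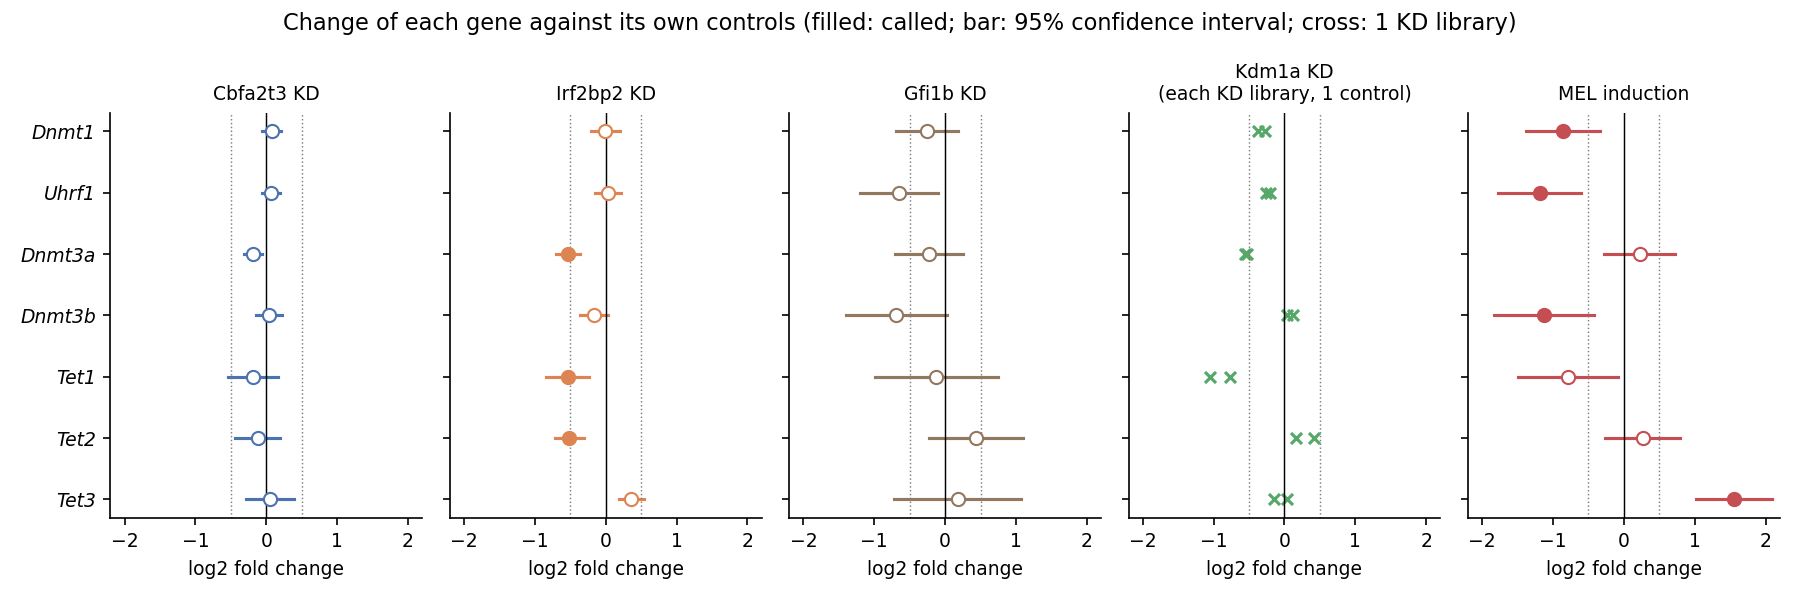
Log2 fold change of each member in each of the 5 sets, with the 95% confidence interval; dotted lines mark 0.5 either way, and crosses are single Kdm1a KD libraries against their only control, drawn without an interval. Filled circles were called: 4 on induction and 3 in the Irf2bp2 KD.

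In the Cbfa2t3 KD no member was called, while 5.74% of 12537 genes were. The 95% confidence interval of the log2 fold change was -0.06 to 0.20 for Dnmt1 and for Uhrf1. Dnmt3a came closest, at 79.8 and 82.6 CPM in controls and 69.5, 72.6, 71.1 and 72.3 CPM in the 4 KD libraries. The groups do not overlap, but the difference of -0.19 (SE 0.06) did not pass (adjusted p = 0.0680, edgeR). This fit took sh2 and sh3 as 1 KD group. Against the controls, Dnmt3a was at -0.19 with sh2 alone (adjusted p = 0.0530, edgeR) and -0.18 with sh3 alone (adjusted p = 0.0256, edgeR). The limit on p was also passed by Tet3 with sh2 alone (0.25, adjusted p = 0.0452, edgeR) and Tet2 with sh3 alone (-0.34, adjusted p = 0.00652, edgeR). None of these reached the fold limit. Of the 52 pathway genes tested 2 were called, near the 5.74% over all genes. They were Ccne1 (0.83, adjusted p = 0.000122) and Idh1 (-0.56, adjusted p = 0.00137). The median of the 52 was 0.02, against 0.0022 over all genes tested. The summed erythroid markers were 1579 to 1588 CPM in controls and 2159 to 2539 CPM in KD libraries.

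The hairpins differed from each other for Tet2 and Tet3. Tet2 stood at 31.7 and 32.2 CPM with sh2 and at 22.4 and 25.6 CPM with sh3, the controls being at 30.7 and 30.2 CPM. The sh3 libraries were thus the low ones, and the difference of sh3 from sh2 was -0.41 (SE 0.08, adjusted p = 0.00706, edgeR). Tet3 stood at 173.4 and 201.9 CPM with sh2, at 130.1 and 150.4 CPM with sh3 and at 150.4 and 165.3 CPM in controls, so that the sh2 libraries were the high ones and sh3 replicate 2 was level with the lower control, with a difference of -0.42 (SE 0.09, adjusted p = 0.01, edgeR). Both differences passed the limit on p alone, as did 13.7% of genes, and neither passed that on fold, which 3.71% did together with p. Without sh3 replicate 1 both missed the limit on p as well, at -0.31 for Tet2 (adjusted p = 0.0634) and -0.32 for Tet3 (adjusted p = 0.0650). Without sh3 replicate 2 both came past the fold limit, at -0.52 and -0.53, and without sh2 replicate 1 Tet3 did, at -0.52. The hairpins also differed in the depth of the knockdown, with Cbfa2t3 1.66-fold lower in sh3 than in sh2, and the part of that in these differences was not tested.

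In the Kdm1a KD, Dnmt3a and Tet1 were lower. The only control has no replicate, and a gene was counted where both KD libraries lay at least 0.5 from the control in the same direction (log2 CPM, prior count 2). By that rule 22.9% of 12628 genes were counted, and 9.80% of the 12628 were lower, against 2 of 7 members, both lower. Dnmt3a went from 83.2 CPM to 57.7 and 56.7 CPM, and Tet1 from 6.81 CPM to 3.96 and 3.28 CPM. Dnmt1 went from 1812 to 1492 and 1395 CPM and Uhrf1 from 435.9 to 362.3 and 380.0 CPM, both lower in each KD library and under the limit. An edgeR fit with 1 residual degree of freedom, in which the lone control is assumed to vary like the KD libraries, called Dnmt3a (-0.54, adjusted p = 3.91e-06) and Tet1 (-0.90, adjusted p = 7.02e-05). Its p-values hold no variation between controls and use the same 3 libraries, so they add no support to the counts above. It called 22.5% of genes, 10.1% lower. In that fit Dnmt1 (-0.33, adjusted p = 0.00215), Uhrf1 (-0.23, adjusted p = 0.0165) and Tet2 (0.30, adjusted p = 0.0160) passed the limit on p and not that on fold. Tet2 measured 27.8 CPM in the control and 37.1 and 31.1 CPM in the KD, Dnmt3b 33.0 against 35.998 and 33.8 CPM and Tet3 139.3 against 143.4 and 125.7 CPM. Of the 52 pathway genes, 5 were past the limit upwards and 8 downwards, beside 13.1% upwards and 9.80% downwards over all genes. Idh1 (1.35) and Neil1 (1.20) are examples of the former, and Usp7, a protease that stabilises DNMT1 and UHRF1 (-0.90), and Idh2 (-0.83) of the latter. The median of the 52 was -0.09, against 0.0014 over all genes. The summed erythroid markers were 1647 CPM in the control and 1194 to 1199 CPM in KD libraries.

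No member and no other gene of 11190 (0%) was called in the Gfi1b set, where 784 genes had an unadjusted p under 0.05 in edgeR and DESeq2 called 49. The libraries labelled KD lay on opposite sides of the controls for Tet3. Tet3 was 167.6 and 145.2 CPM in controls, 248.0 CPM in the library labelled KD replicate 1 and 105.1 CPM in that labelled KD replicate 2. Uhrf1 was 391.1 and 417.5 CPM in controls, 211.7 CPM in replicate 1 and 303.7 CPM in replicate 2, below the controls in both. Dnmt3b had the same order, with 30.4 and 33.8 CPM against 15.4 and 24.6 CPM, and Tet2 was 49.6 and 49.3 CPM against 83.0 and 50.8 CPM. Dnmt1 (1999 and 1765 CPM against 1618 and 1529 CPM) and Dnmt3a (108.4 and 97.1 CPM against 93.6 and 82.1 CPM) were lower in both. Tet1 overlapped, at 10.3 and 7.96 CPM against 8.84 and 7.90 CPM. None of 49 pathway genes tested was called, and their median was -0.06, against 0.02 over all genes.

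Without the library labelled KD replicate 1, 3.48% of genes were called and Tet3 was the only member among them, lower in the remaining library (log2 fold change -0.58, SE 0.17, adjusted p = 0.0211, edgeR with the lone library assumed to vary like the controls). The others were at -0.30 for Dnmt1 (adjusted p = 0.236), -0.41 for Uhrf1 (adjusted p = 0.116), -0.33 for Dnmt3a (adjusted p = 0.382), -0.39 for Dnmt3b (adjusted p = 0.483), -0.22 for Tet1 (adjusted p = 0.866) and 0.04 for Tet2 (adjusted p = 0.961), where Tet2 had been at 0.44 with that library. Of 50 pathway genes 1 was called higher and 1 lower, with a median of -0.12 against -0.0063 over all genes. Without the library labelled KD replicate 2, 26.7% of genes were called, and with them Uhrf1 (-0.95, adjusted p = 2.58e-06), Dnmt3b (-1.08, adjusted p = 0.000478), Tet2 (0.73, adjusted p = 0.00212) and Tet3 (0.64, adjusted p = 0.000749). The sign of Tet3 thus depends on which of the libraries is used. The summed erythroid markers stood at 1334 to 1446 CPM in the controls and between 1387 and 3313 CPM in the libraries labelled KD.

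Correlations of the members across the 21 libraries are given as descriptions, since the libraries share their sets and controls. Taken relative to the mean of the control libraries of each set, log2 CPM of Uhrf1 correlated with that of Dnmt3b at r = 0.94 and of Dnmt1 at r = 0.90, and with that of Tet3 at r = -0.78. Dnmt3b and Tet3 were at r = -0.81. The induced libraries lay far from their controls, at -0.86 and -1.61 for Uhrf1 and -0.67 and -1.06 for Dnmt1. Dnmt3b was at -0.92 and -1.35 and Tet3 at 1.41 and 1.70 there. No r was computed without the induction set, so how far these values restate the change on induction was not tested. The TET genes were not of 1 kind, as Tet1 was at r = 0.61 with Dnmt1, 0.39 with Uhrf1 and -0.42 with Tet3, and Tet2 at r = -0.52 with Dnmt1. Dnmt3a was at r = -0.21 with Dnmt1 and -0.32 with Uhrf1 and correlated at r = 0.41 with Tet1 and with Tet3. Without the library labelled Gfi1b KD replicate 1, a setting added after seeing the data, Uhrf1 was at r = 0.93 with Dnmt3b, 0.95 with Dnmt1 and -0.78 with Tet3, and Tet1 at r = 0.63 with Dnmt1. Among 11053 genes that passed the filter in all sets, the closest to Dnmt1 were Fancd2 (r = 0.97), a DNA crosslink repair gene, Anapc15 (r = 0.96) and Cdc7 (r = 0.96), the kinase that fires replication origins. Closest to Uhrf1 were Timm8a1, Rsad1 and Mettl13 (each r = 0.98), to Dnmt3b Pdap1, Rpusd4 and Qrsl1 (each r = 0.97), and to Dnmt3a Slc48a1, a haem transporter (r = 0.91), Zfp266 and Tmlhe (each r = 0.90). Closest to Tet3 were Nxf1 (r = 0.97), an mRNA export factor, Mapkbp1 (r = 0.96) and Ccnl2 (r = 0.95). For Tet2 they were Crebrf (r = 0.91), Aff4 (r = 0.89) and Slc17a9 (r = 0.88), and for Tet1 Gpam (r = 0.88) and D630045J12Rik (r = 0.86). Without that library the genes named here stayed at r of 0.85 to 0.98 with their member, but not all stayed among the 3 closest.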

How the data were processed

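RNA-Seq was measured in 21 libraries of MEL cells and IRF2BP2 binding by ChIP-Seq; the ETO2 binding data were taken by the authors from earlier published work. Per the processing notes, the authors used TopHat2, Bowtie and DESeq2 with mm9. The authors deposited raw counts per gene and RPKM in 1 table per set. Their fold changes and p-values were not used. The deposited site list gives a fold enrichment ratio over IgG for sites found by the authors with at least 2 callers.

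Counts were filtered with filterByExpr, scaled by TMM and tested with edgeR 4.0.16 (R 4.3.3, quasi-likelihood, Benjamini-Hochberg over all genes tested). The test was also run on data simulated for the Cbfa2t3, Irf2bp2 and induction sets. The outcome is not given here, and no result rests on it. DESeq2 1.42.0, other filters and scalings, a replicate block and leaving out each library were alternatives. RPKM served for levels between genes only; the 5 tables were normalized separately. Replicates differed beyond sampling noise in each of the 10 groups with 2 libraries. Members and lists were chosen with earlier results of these data known. Named genes were the members, the depleted genes, at most 2 called genes each way per list and the 3 closest genes by Pearson r. Some genes that this rule names are not reported here. Site positions use mm9 with GENCODE; promoters are from RefSeq.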

Additional observations from a re-analysis of the deposited data

Results flagged for a closer look

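The hairpins against Cbfa2t3 differed in their effect on a pair of TET genes by a test of the difference itself. Tet2 was lower with sh3 than with sh2 by a log2 difference of -0.41 (adjusted p = 0.00706, edgeR), and Tet3 by -0.42 (adjusted p = 0.01, edgeR). In both genes the 2 sh3 libraries were below the 2 sh2 libraries, and without sh3 replicate 1 the adjusted p became 0.0634 and 0.0650. Neither gene reached the fold limit of a call, and 13.7% of all genes passed on adjusted p alone. Cbfa2t3 itself was 1.66-fold lower with sh3 than with sh2.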

How the results depend on the processing

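With DESeq2, DESeq2 size factors, other filters on low counts, the hairpins taken apart or the replicate block, 206 values for a member kept their direction and their side of the threshold and 4 did not. The 4 changed sign, namely Tet2 with sh2 alone (0.0657), Tet3 with sh3 alone (-0.17) and Dnmt1 in the Irf2bp2 KD by DESeq2 (0.0032) and without a filter (0.0057). Genes called rose to 1145 with sh3 alone, pathway genes called with sh2 alone came to 1, and the Gfi1b set gave 49 genes by DESeq2 and 411 without a filter. By raw counts Tet3 made up 53.2% of TET reads before and 75.3% after induction. Of the 11 sites, 5 were at or above the median fold of the list. The cause of these changes was not tested.

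Leaving out 1 library at a time kept 153 values for a member, while 11 lost the call and 7 gained it with their sign kept, and 11 changed sign. A value that changed sign was counted there alone. This holds for Tet3 without the library labelled Gfi1b KD replicate 1, which also became called. Genes called ranged from 279 to 797 in the Cbfa2t3 KD, from 0 to 3148 in the Gfi1b set and from 1522 to 3369 on induction. Members called ranged from 0 to 2 between the hairpins, from 0 to 3 in the Irf2bp2 KD, from 0 to 4 in the Gfi1b set and from 1 to 4 on induction, and pathway genes called from 0 to 21 in the Gfi1b set and from 11 to 23 on induction. The log2 fold changes that changed sign ranged from -0.0612 to 0.15 (Tet3) and -0.0029 to 0.0699 (Dnmt3b) in the Cbfa2t3 KD, from -0.0178 to 0.0453 (Dnmt3a) and -0.14 to 0.0717 (Dnmt3b) between the hairpins, from -0.0580 to 0.0562 (Dnmt1) in the Irf2bp2 KD, from -0.31 to 0.0668 (Tet1) and -0.58 to 0.64 (Tet3) in the Gfi1b set and from -0.15 to 0.0412 (Tet3) in the Kdm1a KD.

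With the replicate number as a block, edgeR called 632 genes in the Cbfa2t3 KD, 581 between the hairpins, 2834 in the Irf2bp2 KD, 0 in the Gfi1b set and 3916 on induction. The block changed no count of members called, and pathway genes called on induction came to 26. Differences between same-numbered replicates correlated at r = 0.25, 0.12 and 0.25 in the Cbfa2t3 set, 0.03 in the Irf2bp2 set, 0.0015 in the Gfi1b set and 0.20 in the induction set, and the labels give these samples a number alone.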
